A study of Saccharomyces cerevisiae YPS1009 with 40 samples.

Results

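AGY1839 is a haploid of the wild oak isolate YPS1009 that carries a second copy of chromosome XV (Chr15), and its cultures at day 1 were compared here with its own log-phase cultures across all genes. The members were taken by their sample labels, and 4 of the series' 40 libraries belong to the contrast: 2 log-phase cultures and 2 day 1 cultures, each labelled a biological duplicate. Of 6714 genes in the deposited table, 5864 reached 10 counts in 2 or more libraries and were tested. The series holds 5 strains in log phase and at days 1, 3 and 7, all grown in the rich glucose medium YPD and left to exhaust it, and day 1 is 24 h in the labels. The study's strain list gives AGY1839 as MATa with the ho-Δ1 allele, and it gives AGY731, the euploid used for comparison at the same 2 times, as MATa with hoΔ::HphMX and no extra chromosome. The other 3 strains, AGY735, AGY1835 and AGY1845, are listed with an extra chromosome XII, IV and XIV, so 6 of the 8 log-phase libraries of other strains used below are aneuploid too. Each strain is listed as a single line, and the extra chromosome and the ho allele differ together between them. In the replicate 1 libraries of AGY1839 the mating-type profile also differed from the listed one and from that of AGY731, as described below. The effects of these differences cannot be told apart.

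Budding yeast ferments glucose as long as it lasts and holds the genes for respiration, gluconeogenesis and other carbon sources low through glucose repression. As glucose runs out, at the diauxic shift, cells turn to the ethanol and acetate they made. The kinases TORC1 and PKA lose activity, transcription of ribosome components falls, and stress genes are activated through Msn2 and Msn4. Cells then prepare for quiescence (G0) by leaving the cell cycle, storing trehalose and glycogen and thickening the cell wall. In haploids, a separate pathway answers mating pheromone: a receptor and a G protein (Gpa1, Ste4, Ste18) signal through a MAP kinase cascade to the factor Ste12, which binds the pheromone response element. MATa cells make a-factor and the receptor Ste2, and MATalpha cells make alpha-factor and the receptor Ste3.

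The libraries were checked against their labels before any comparison. Total counts were 6746422 and 4328464 in log phase and 3792145 and 2865438 at day 1. In CPM, counts scaled to a common library size with TMM factors, genes on chromosome XV stood above genes on the other nuclear chromosomes, relative to the euploid at the same time, by 1.83 and 1.87 times in the log-phase libraries and by 1.76 and 1.80 times at day 1 (median over 330 against 3122 genes with at least 50 counts in each of the 8 libraries), so all 4 libraries carried the labelled chromosome. HO, which encodes the mating-type switching endonuclease, had 0 counts in all 4, which allows up to 3 counts in each, and 28, 16, 5 and 10 in the euploid libraries, which goes against the deletion listed for AGY731 if those reads lie in the deleted part. Where they lie was not tested. The mating-type markers, in contrast, separated the replicates of AGY1839.

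MFA2, which encodes a-factor, had 1 and 5 counts in the log-phase and day 1 libraries of replicate 1, and 2035 and 281 in those of replicate 2. STE2, the alpha-factor receptor of MATa cells, had 65 and 16 counts in the log-phase and day 1 libraries of replicate 1, and 6011 and 129 in those of replicate 2. BAR1, the protease with which MATa cells degrade alpha-factor, had 23 and 22 counts in the log-phase and day 1 libraries of replicate 1, and 3066 and 99 in those of replicate 2. These genes were far lower in the replicate 1 libraries than in those of replicate 2 at the same time. STE6, the a-factor exporter, had 84 and 167 counts in the log-phase and day 1 libraries of replicate 1, and 2445 and 617 in those of replicate 2, and ASG7 had 3 and 6 counts in the log-phase and day 1 libraries of replicate 1, and 624 and 19 in those of replicate 2. MF(ALPHA)1, the main alpha-factor gene, showed the opposite, with 10626 and 6080 counts in the log-phase and day 1 libraries of replicate 1, and 3 and 3 in those of replicate 2. STE3, the a-factor receptor of MATalpha cells, had 2331 and 615 counts in the log-phase and day 1 libraries of replicate 1, and 3 and 10 in those of replicate 2. SAG1 had 12510 and 1909 counts in replicate 1, and 131 and 109 in replicate 2. MF(ALPHA)2, the other alpha-factor gene, had 2555 and 27 counts in replicate 1, and 18 and 18 in replicate 2. It thus separated the replicates in log phase but not at day 1, when the euploid libraries had 17 and 22. HMRA1, which names the silent copy of the MATa a1 gene, had 0 counts in both replicate 1 libraries and 135 and 175 in those of replicate 2. The copies of that gene cannot be told apart by the counts, and it was chosen after its values were seen. Summed over the 6 a-specific markers, the replicate 1 libraries held 26.5 (log phase) and 58.5 (day 1) CPM of the library total with no TMM scaling (raw CPM) and the replicate 2 libraries 3573 and 431, while the 32 libraries of the other 4 strains held 51.01 to 1623. The log-phase libraries thus lay outside that range on either side. The day 1 libraries lay within it, but it pools all times. The day 1 libraries of the other strains alone held 258.5 to 836. At day 1 replicate 1 lay below all of these, and replicate 2 within their range. Summed over the 4 alpha-specific markers, the AGY1839 libraries held 4154 and 2276 for replicate 1 and 35.8 and 48.9 for replicate 2. The 32 libraries of the other strains held 19.3 to 165. The replicate 1 libraries of AGY1839 therefore carried an alpha-type profile, against the MATa of the strain list, and the replicate 2 libraries an a-type profile. How this arose was not tested, and no direction was drawn from the fitted change of any mating-type marker. Each count below that rests on these libraries was also computed without both replicate 1 libraries and without both replicate 2 libraries, an alternative chosen after seeing the data.

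**Figure D1:**
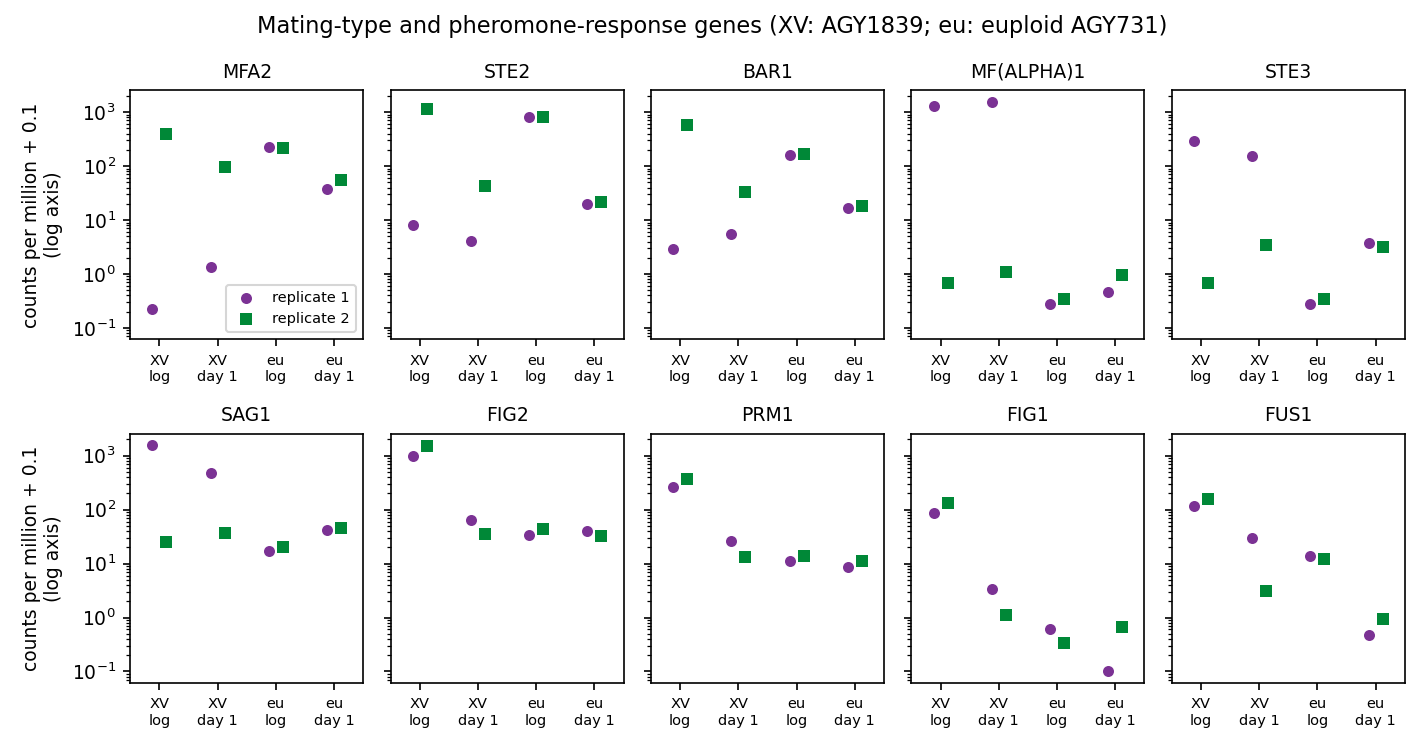
CPM plus 0.1 (log axis) of 10 mating-type and pheromone-response genes in each library of AGY1839 (XV) and of the euploid AGY731 (eu), in log phase and at day 1, with 1 point for each culture. In AGY1839 replicate 1 the a-specific genes MFA2, STE2 and BAR1 are low and the alpha-specific genes MF(ALPHA)1, STE3 and SAG1 are high, replicate 2 shows the reverse, and FIG2, PRM1, FIG1 and FUS1 are high in both log-phase cultures of AGY1839.

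A second property set the log-phase libraries of AGY1839 apart, and both cultures shared it, so it could not be left out by dropping either. FIG2, a cell wall adhesin of mating cells, had 1166 and 1822 raw CPM in the 2 log-phase cultures, against 19.4 to 50.03 in the 8 log-phase libraries of the other strains. HXK1, a hexokinase isozyme repressed by glucose, had 425 and 335 raw CPM against 1.04 to 4.54, and HSP12, a small membrane-associated heat-shock protein, had 71.0 and 61.9 raw CPM against 0 to 3.19. For each of these genes both AGY1839 log-phase cultures lay above every other log-phase library. The log phase used as baseline here thus already held some pheromone-response, glucose-repressed and stress transcripts. The values for each are given beside the results they touch. Not all such transcripts were high. The gluconeogenesis and glyoxylate genes PCK1, FBP1 and MLS1 and the hydrophilins GRE1 and SIP18 were close to the limit of counting in log phase. PRM7, named for regulation by pheromone, lay below all 8 log-phase libraries of the other strains.

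Between log phase and day 1, 1993 genes (34.0% of those tested) rose and 1887 (32.2%) fell, 66.2% in all (edgeR quasi-likelihood test, adjusted p under 0.05), and the 2 cultures of one time did not overlap those of the other for 88.9% of genes. Among the genes that rose, 731 did so by more than 4-fold and 103 by more than 64-fold. Falls were shallower, with 546 genes past 4-fold and 3 past 64-fold. Without the replicate 1 libraries 1533 genes rose and 1409 fell, and without the replicate 2 libraries 1500 rose and 1465 fell, in fits that leave 1 culture at each time. Changes written as rose by, fell by, up by or down by, and list medians, are log2 fold changes. All values are relative abundances within a library, so a change in total RNA per cell is not seen, and fewer cells of a kind and less RNA per cell cannot be told apart. The median log2 fold change over all genes was 0.04, and it became -0.11 with DESeq2 size factors and -0.16 with total counts, so changes of that size have no settled direction. Calls split into 51.4% higher under the main scaling and 45.1% under total counts.

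**Figure D2:**
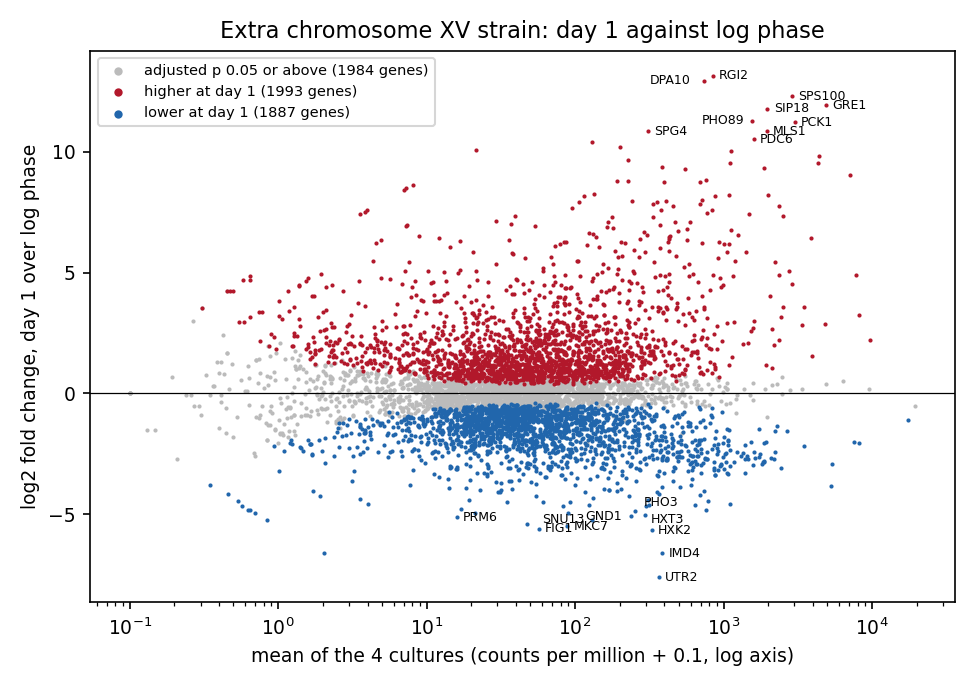
Log2 fold change from log phase to day 1 in AGY1839 (vertical axis) against the mean CPM plus 0.1 of its 4 cultures (log horizontal axis), with 1 point for each of the 5864 genes tested. The 1993 genes that rose reach a log2 fold change of 13.13 and the 1887 that fell reach -7.60.

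The 10 largest rises included genes of growth without glucose and stress proteins of stationary cells. SPS100 (YHR139C), a spore wall protein, read 1.36 and 0.760 CPM in log phase and 4943 and 6547 CPM at day 1 (log2 fold change 12.29 ± 0.48 (SE), adjusted p = 7.4e-18). GRE1 (YPL223C), a hydrophilin, read 2.36 and 2.66 CPM in log phase and 8620 and 10880 CPM at day 1 (log2 fold change 11.91 ± 0.61 (SE), adjusted p = 1.3e-15). No overlap between the log-phase and day 1 cultures was a condition for picking these genes. SIP18 (YMR175W), another hydrophilin, read 1.49 and 0.570 CPM in log phase and 3463 and 4438 CPM at day 1 (log2 fold change 11.76 ± 0.61 (SE), adjusted p = 6.2e-15). PHO89 (YBR296C), a sodium-coupled phosphate importer, read 0.993 and 1.52 CPM in log phase and 3449 and 2783 CPM at day 1 (log2 fold change 11.27 ± 0.67 (SE), adjusted p = 3.2e-14). PCK1 (YKR097W), phosphoenolpyruvate carboxykinase, which commits carbon to gluconeogenesis, read 2.85 and 2.09 CPM in log phase and 6114 and 5932 CPM at day 1 (log2 fold change 11.20 ± 0.93 (SE), adjusted p = 2.4e-11). These transcripts were close to the limit of counting in log phase and abundant at day 1. MLS1 (YNL117W), malate synthase of the glyoxylate cycle, read 2.36 and 1.71 CPM in log phase and 3714 and 4084 CPM at day 1 (log2 fold change 10.85 ± 0.67 (SE), adjusted p = 6.9e-14), and PDC6 (YGR087C), a minor pyruvate decarboxylase, 2.23 and 2.09 CPM in log phase and 2463 and 3936 CPM at day 1 (log2 fold change 10.50 ± 0.90 (SE), adjusted p = 4.6e-11). SPG4 (YMR107W), needed for survival in stationary phase, read 0.372 and 0.190 CPM in log phase and 603 and 636 CPM at day 1 (log2 fold change 10.84 ± 0.80 (SE), adjusted p = 2.7e-12). RGI2 (YIL057C), a factor of respiratory growth, and DPA10 (YLR307C-A) had 2 counts over both log-phase libraries, so their rises are given as ratios of counts: 11611 (95% exact interval 3213 to 95883) and 9545 (2642 to 78831), intervals that cover counting error only.

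The 10 largest falls included genes of glucose uptake and use, and 2 of them were genes of the mating response. UTR2 (YEL040W), an enzyme that links chitin to cell wall glucan, read 757 and 703 CPM in log phase and 3.73 and 3.71 CPM at day 1 (log2 fold change -7.60 ± 0.42 (SE), adjusted p = 6.2e-15). HXK2 (YGL253W), the hexokinase of glucose-grown cells, read 656 and 629 CPM in log phase and 11.2 and 14.5 CPM at day 1 (log2 fold change -5.65 ± 0.52 (SE), adjusted p = 1.8e-10). HXT3 (YDR345C), a low-affinity glucose transporter, read 593 and 547 CPM in log phase and 15.2 and 19.9 CPM at day 1 (log2 fold change -5.03 ± 0.46 (SE), adjusted p = 2.3e-10). The day 1 cultures lay far below the log-phase cultures in all of them. IMD4 (YML056C), an IMP dehydrogenase of GTP synthesis, read 751 and 782 CPM in log phase and 7.71 and 8.09 CPM at day 1 (log2 fold change -6.59 ± 0.65 (SE), adjusted p = 8.0e-10), although reads can be shared with its near-identical paralogs. SNU13 (YEL026W), a protein of snoRNA particles and the spliceosome, read 240.4 and 265 CPM in log phase and 8.71 and 4.38 CPM at day 1 (log2 fold change -5.22 ± 0.63 (SE), adjusted p = 4.2e-08). GND1 (YHR183W), the main 6-phosphogluconate dehydrogenase, read 460.1 and 464 CPM in log phase and 16.4 and 10.8 CPM at day 1 (log2 fold change -5.07 ± 0.40 (SE), adjusted p = 1.4e-11). MKC7 (YDR144C), a surface aspartyl protease, fell by 5.48 and PHO3 (YBR092C), an acid phosphatase, by 4.85 on the log2 scale (adjusted p = 1.6e-14 and 3.2e-14). FIG1 and PRM6, the mating genes, are described with the pheromone response. The plot of the 20 genes by culture shows the values of each replicate, for genes picked with no overlap between the times.

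**Figure D3:**
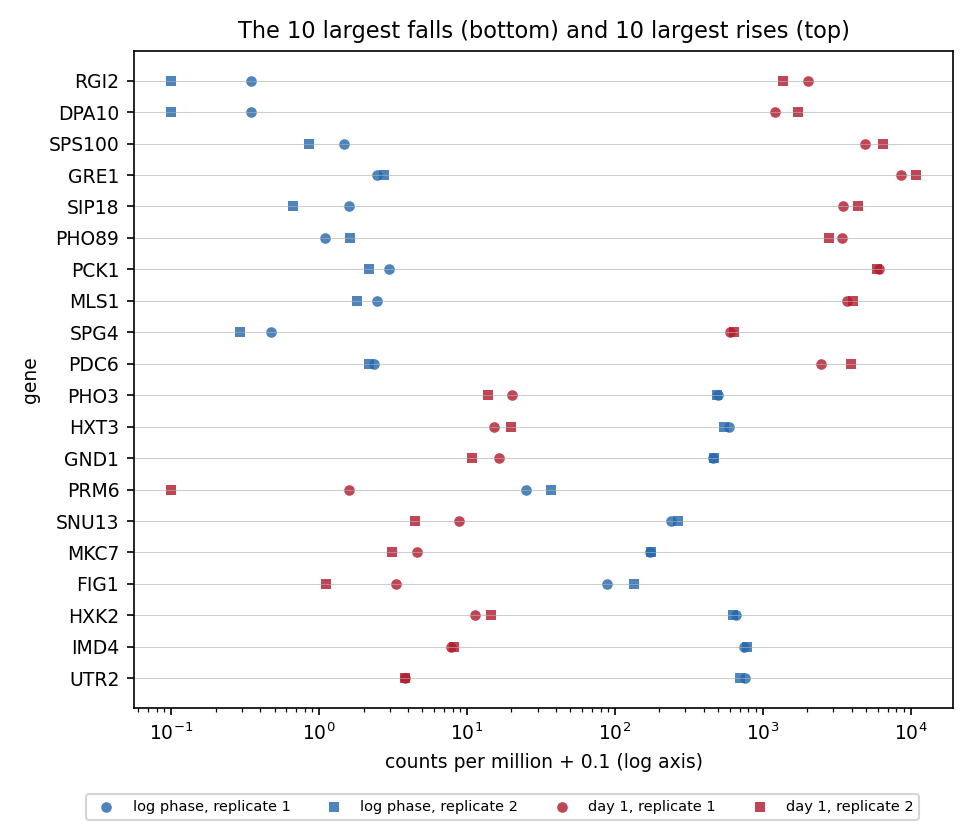
CPM plus 0.1 (log axis) of the 10 genes with the largest falls and the 10 with the largest rises, in each of the 4 AGY1839 cultures (blue, log phase; red, day 1; circles, replicate 1; squares, replicate 2). No overlap of the log-phase and day 1 cultures was a condition for picking the 20. They run from UTR2 (-7.60 on the log2 scale) to RGI2 (13.13, fitted from 2 counts in log phase).

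Genes that carry stress response elements and pheromone response elements recur below, so upstream sequence is shown for 6 named genes. These were picked by hand and each holds the motif marked, so they do not stand for the other named genes. A window of 300 bases, from 350 to 51 bases before the first base of the gene, was read from the S288C reference (RefSeq, assembly R64) with its own annotation. The YPS1009 sequence was not used here and can differ. Capitals mark, on either strand, AGGGG (the stress response element) in HSP12, DDR2 and SPS100, TGAAACA (the pheromone response element) in PRM2 and PRM6, and GCGATGAG (the PAC motif of many ribosome biogenesis genes) in IMD4.
HSP12, chrVI:106906-107205, plus strand: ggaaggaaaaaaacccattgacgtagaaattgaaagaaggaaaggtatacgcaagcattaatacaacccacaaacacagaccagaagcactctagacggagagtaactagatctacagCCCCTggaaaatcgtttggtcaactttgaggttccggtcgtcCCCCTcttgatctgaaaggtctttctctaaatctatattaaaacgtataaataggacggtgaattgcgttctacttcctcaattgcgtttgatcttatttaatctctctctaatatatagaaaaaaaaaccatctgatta
DDR2, chrXV:231806-232105, minus strand: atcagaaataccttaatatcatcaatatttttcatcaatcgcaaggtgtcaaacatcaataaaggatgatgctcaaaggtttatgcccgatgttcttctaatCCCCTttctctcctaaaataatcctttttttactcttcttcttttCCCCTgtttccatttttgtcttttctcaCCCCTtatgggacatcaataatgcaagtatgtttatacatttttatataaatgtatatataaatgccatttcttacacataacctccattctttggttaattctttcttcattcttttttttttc
SPS100, chrVIII:379250-379549, minus strand: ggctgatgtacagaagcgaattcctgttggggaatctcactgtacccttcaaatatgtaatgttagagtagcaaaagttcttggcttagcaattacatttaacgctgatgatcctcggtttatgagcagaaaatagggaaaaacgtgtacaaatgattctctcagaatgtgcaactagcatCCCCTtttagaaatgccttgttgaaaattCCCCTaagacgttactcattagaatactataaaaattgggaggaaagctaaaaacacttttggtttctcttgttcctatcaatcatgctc
PRM2, chrIX:285050-285349, minus strand: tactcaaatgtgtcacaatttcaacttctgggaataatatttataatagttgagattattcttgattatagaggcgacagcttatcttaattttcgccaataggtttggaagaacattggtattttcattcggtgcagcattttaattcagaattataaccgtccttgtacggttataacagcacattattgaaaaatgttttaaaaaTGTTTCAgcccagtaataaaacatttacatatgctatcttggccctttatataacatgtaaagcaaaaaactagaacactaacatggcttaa
PRM6, chrXIII:181126-181425, minus strand: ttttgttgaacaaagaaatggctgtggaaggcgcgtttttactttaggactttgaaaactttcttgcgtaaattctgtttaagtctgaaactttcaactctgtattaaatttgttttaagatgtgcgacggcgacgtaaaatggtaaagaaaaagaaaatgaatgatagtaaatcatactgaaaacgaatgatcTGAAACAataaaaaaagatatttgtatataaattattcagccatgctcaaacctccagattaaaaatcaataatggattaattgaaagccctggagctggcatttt
IMD4, chrXIII:164227-164526, minus strand: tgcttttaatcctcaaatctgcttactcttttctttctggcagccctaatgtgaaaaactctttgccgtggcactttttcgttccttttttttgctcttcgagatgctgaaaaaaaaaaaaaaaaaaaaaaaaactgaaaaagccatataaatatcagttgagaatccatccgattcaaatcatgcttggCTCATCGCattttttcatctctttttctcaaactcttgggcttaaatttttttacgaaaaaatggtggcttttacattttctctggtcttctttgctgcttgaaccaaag

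DDR2 held 3 stress response elements, HSP12 and SPS100 2 each, and PRM2 and PRM6 1 pheromone response element each. Over the windows of all tested genes, AGGGG was present in 1322 of 5669 (23.3%), TGAAACA in 416 of 5669 (7.34%) and GCGATGAG in 244 of 5669 (4.30%). AGGGG was present in 14 of 17 (82.4%) trehalose and glycogen genes, in 7 of 8 (87.5%) small heat-shock genes and in 9 of 17 (52.9%) hydrophilin and stationary-phase genes, and GCGATGAG in 67 of 133 (50.4%) ribosome biogenesis genes. GCGATGAG was in 3 of 10 (30%) RNA polymerase I windows and in 0 of 57 windows of small-subunit ribosomal proteins. Of the 10 genes that rose most, 1 (SPS100) held AGGGG in its window. A match describes these letters in the reference and is not evidence of binding.

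Genes of gluconeogenesis and the glyoxylate cycle, which build sugar from acetate, rose without exception: 9 of 9, with a median log2 fold change of 7.93 (range 4.90 to 11.20), beside 0.04 over all genes. ACS1, the acetyl-CoA synthetase of these conditions, read 9.43 and 9.69 CPM in log phase and 10420 and 7064 CPM at day 1 (log2 fold change 9.83 ± 0.73 (SE), adjusted p = 2.8e-12). FBP1, fructose-1,6-bisphosphatase, read 2.73 and 3.80 CPM in log phase and 1438 and 1323 CPM at day 1 (log2 fold change 8.73 ± 0.67 (SE), adjusted p = 5.1e-12). All 4 genes of acetate and lactate transport rose too, with ADY2, an acetate transporter, at 1.86 and 2.47 CPM in log phase and 2958 and 1553 CPM at day 1 (log2 fold change 10.02 ± 1.09 (SE), adjusted p = 5.0e-09) and JEN1, the lactate permease, at 7.74 on that scale. ATO2 and ATO3 rose by 5.88 and 3.72. For none of these 13 genes did the change pass the test of a difference from the euploid, which 3.80% of all genes passed. Of 19 genes of fatty acid oxidation and the carnitine shuttle 18 rose (94.7%, median 5.13). Of all genes 34.0% rose. The shuttle stood at the top, with CRC1, the mitochondrial carnitine carrier, at 9.28, the carnitine acetyltransferases YAT1, CAT2 and YAT2 at 8.21, 7.47 and 7.43, and ANT1, the peroxisomal ATP carrier, the 1 member that did not pass (log2 fold change -0.14, adjusted p = 0.57).

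Respiration rose less evenly. In the TCA cycle 13 of 17 genes rose (76.5%, beside 34.0% of all genes) and 3 did not pass (median 1.65). The succinate dehydrogenase gene SDH2 read 106 and 116 CPM in log phase and 1411 and 959 CPM at day 1 (log2 fold change 3.41 ± 0.43 (SE), adjusted p = 8.0e-08), SDH1 and KGD2 rose by 2.95 and 2.62, and CIT3, a minor citrate synthase, rose by 7.83. The members that did not pass were the isocitrate dehydrogenase subunits IDH1 (log2 fold change 0.23, adjusted p = 0.29) and IDH2 (log2 fold change -0.12, adjusted p = 0.63) and LSC1 (log2 fold change -0.15, adjusted p = 0.53). Among 37 nuclear genes of the respiratory chain and ATP synthase, 19 rose, 2 fell and 16 did not pass (median 0.57). The shares called were 51.4% and 5.41%, beside 34.0% and 32.2% of all genes. Without the replicate 1 libraries 9 rose, and without the day 1 library of replicate 1 alone 12. Isoforms moved apart: NDE2, an external NADH dehydrogenase, read 2.23 and 3.80 CPM in log phase and 2247 and 2199 CPM at day 1 (log2 fold change 9.55 ± 0.65 (SE), adjusted p = 5.2e-13), while its partner NDE1 fell (log2 fold change -1.08, adjusted p = 0.0012). CYC1, the main cytochrome c, fell (log2 fold change -1.82, adjusted p = 5.0e-06) and CYC7, the isoform of starved or anaerobic cells, rose (log2 fold change 1.44, adjusted p = 3.0e-05). COX26, a small cytochrome oxidase subunit, rose by 8.80. Transcripts encoded in mitochondrial DNA rose in 6 of 7 genes (median 2.65), led by COX1 at 1539 and 1625 CPM in log phase and 15300 and 14480 CPM at day 1 (log2 fold change 3.23 ± 0.45 (SE), adjusted p = 3.6e-07), and ATP8, with a low count, did not pass (log2 fold change 1.53, adjusted p = 0.22).

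Sugar uptake and glycolysis showed isozyme exchange rather than a common direction. Of 17 hexose-phosphorylating and glycolytic genes 4 rose, 2 fell and 11 did not pass (median 0.19, with a sign that changed with the scaling). The shares called were 23.5% and 11.8%, beside 34.0% and 32.2% of all genes. TDH1, the glyceraldehyde-3-phosphate dehydrogenase of non-growing cells, read 22.0 and 32.9 CPM in log phase and 11300 and 16980 CPM at day 1 (log2 fold change 9.01 ± 0.66 (SE), adjusted p = 2.3e-12), whereas TDH3 (log2 fold change -0.52, adjusted p = 0.30) and TDH2 (log2 fold change 0.13, adjusted p = 0.78) did not pass. ENO1 rose from 462 and 545 to 13940 and 16320 CPM (log2 fold change 4.91 ± 0.58 (SE), adjusted p = 2.1e-08) while ENO2, the enolase of glucose-grown cells, fell from 12270 and 11870 to 2612 and 3404 CPM (log2 fold change -2.004 ± 0.39 (SE), adjusted p = 5.4e-05). Reads of these close paralogs may be shared, since the handling of reads with several matches was not stated. HXK2 fell, as above, and GLK1 and PYK2 rose by 2.23 and 2.13. HXK1 read 356 and 276 CPM in log phase and 413 and 491 CPM at day 1 and did not pass (log2 fold change 0.52, adjusted p = 0.095), from the high log-phase level given above. It was called higher with only the contrasted libraries (0.46). In the hexose transporters 6 of 17 rose, 5 fell and 6 did not pass (35.3% and 29.4% called, near the 34.0% and 32.2% of all genes). HXT3, HXT2 and HXT7 fell by 5.03, 3.61 and 2.39, and HXT5, a transporter of slow-growing cells, read 7.70 and 3.61 CPM in log phase and 3565 and 3970 CPM at day 1 (log2 fold change 9.34 ± 0.56 (SE), adjusted p = 3.4e-14). HXT6, which is nearly identical to HXT7, rose by 2.69, so this pair is uncertain. The pentose phosphate genes split by isozyme, with GND1, TKL1 and SOL3 down by 5.07, 4.44 and 3.54 and GND2, NQM1, TKL2 and SOL4 up by 7.85, 7.60, 6.81 and 4.48. ADH1, the fermentative alcohol dehydrogenase, fell (log2 fold change -2.05, adjusted p = 5.3e-06), while ADH2, which oxidises ethanol, and ALD4, the mitochondrial acetaldehyde dehydrogenase, rose (log2 fold change 2.81, adjusted p = 1.1e-05, and log2 fold change 3.56, adjusted p = 1.4e-08).

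The translation machinery fell almost as a block, beside the 32.2% of all genes that fell. All 57 tested genes of the small ribosomal subunit fell (median -2.65), as did 80 of 82 in the large-subunit list (median -2.63). That list also holds RPP1 (YHR062C), which encodes a subunit of RNase P and not a ribosomal protein. RPS22A read 1283 and 1351 CPM in log phase and 77.9 and 64.8 CPM at day 1 (log2 fold change -4.20 ± 0.45 (SE), adjusted p = 3.9e-09) and RPL9A 1490 and 1464 CPM in log phase and 54.8 and 49.9 CPM at day 1 (log2 fold change -4.82 ± 0.30 (SE), adjusted p = 7.1e-14). RPL15B, a low-expressed paralog, rose from 21.5 and 21.8 to 38.3 and 43.5 CPM (log2 fold change 0.91, adjusted p = 0.0036). Of 133 ribosome biogenesis factors 131 fell (median -2.05). NOP1, the snoRNA-guided methyltransferase fibrillarin, read 442 and 433 CPM in log phase and 26.1 and 20.2 CPM at day 1 (log2 fold change -4.23 ± 0.62 (SE), adjusted p = 9.8e-07), and its partner NOP58 and LCP5 fell by 4.08 and 4.07. All 10 RNA polymerase I genes fell (median -2.49; RPA12 -3.65, RRN3 -0.78), and 27 of 28 translation factors fell (median -1.67), with YEF3, elongation factor 3, at 10010 and 9641 CPM in log phase and 745 and 652 CPM at day 1 (log2 fold change -3.81 ± 0.63 (SE), adjusted p = 5.7e-06). CAM1, a subunit of the elongation factor 1B complex, rose (log2 fold change 0.77, adjusted p = 0.011). Mitochondrial ribosomal proteins fell less, 54 of 64 with a median of -1.26. Of all genes in these 6 lists, 1 (in the large-subunit list) passed the test of a different change from the euploid, which 3.80% of all genes passed.

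**Figure D4:**
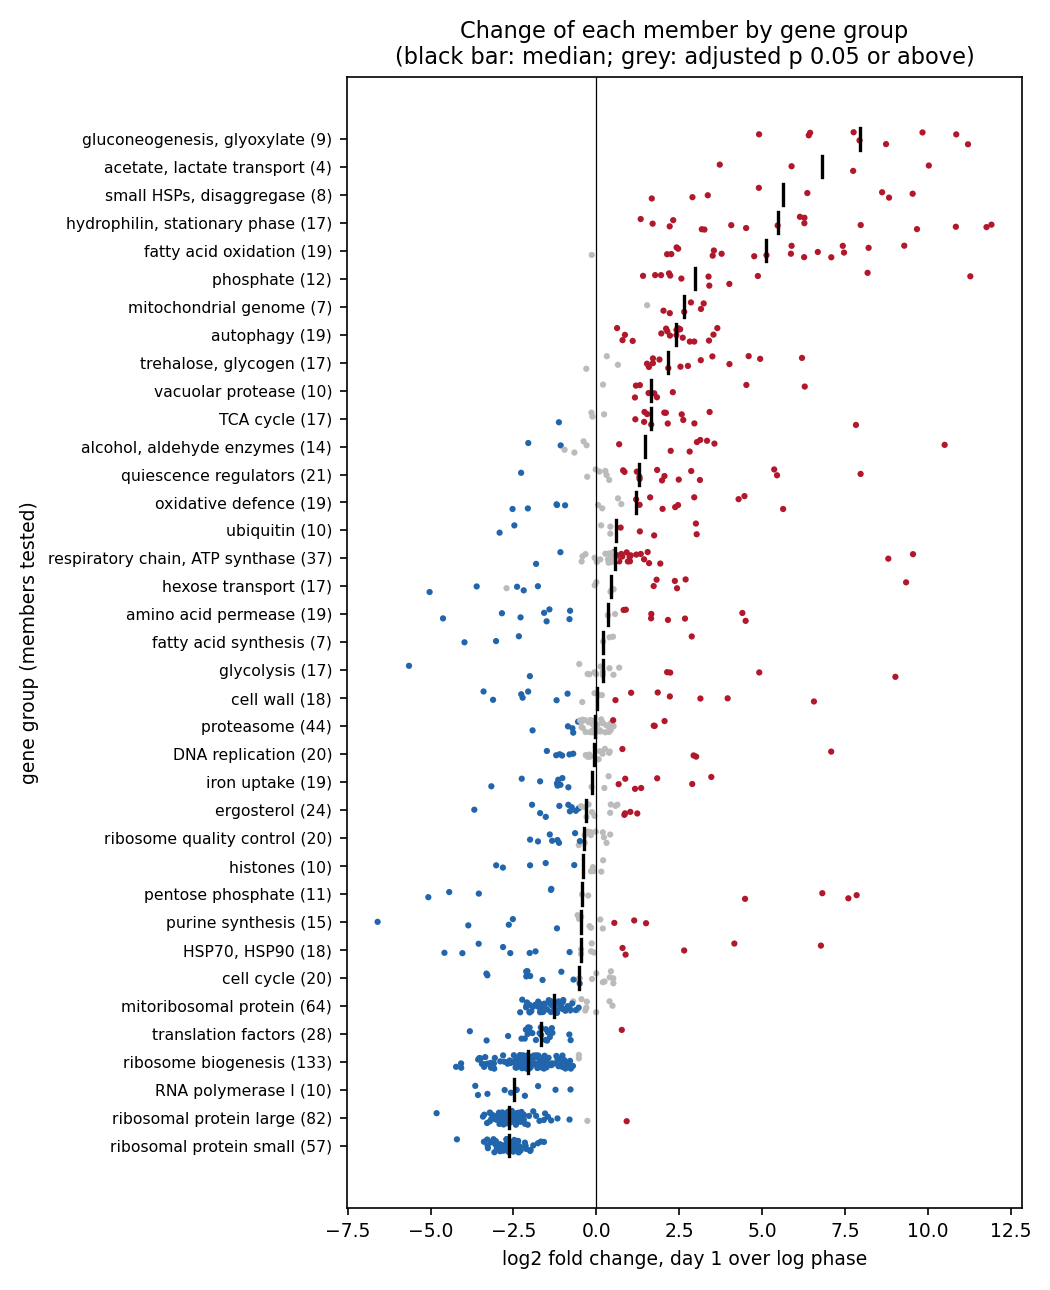
Log2 fold change from log phase to day 1 in AGY1839 of every tested member of 37 gene groups, ordered by the group median (black bar); red and blue points passed the test and grey points did not. Gluconeogenesis and glyoxylate genes stand highest (median 7.93) and small-subunit ribosomal proteins lowest (median -2.65).

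Stress and storage genes rose, beside the 34.0% of all genes that did. All 17 hydrophilin and stationary-phase genes were higher at day 1 (median 5.46), from SNO1, a vitamin B6 synthesis gene (1.34), to GRE1. Of the small heat-shock proteins and disaggregase all 8 rose (median 5.63, or 5.51 with SNO4 at its bound). HSP26 read 11.8 and 11.4 CPM in log phase and 7589 and 9679 CPM at day 1 (log2 fold change 9.53 ± 0.61 (SE), adjusted p = 1.4e-13) and HSP30 rose by 8.82. SNO4, a near-identical paralog of HSP32 with 0 counts in both log-phase libraries, was at least 69.3-fold higher at day 1, taking 3 counts over both libraries as the floor. HSP104, the disaggregase, read 205 and 203 CPM in log phase and 617 and 683 CPM at day 1 (log2 fold change 1.67 ± 0.37 (SE), adjusted p = 2.9e-04). Cytosolic chaperones were mixed: among HSP70, HSP90 and their partners 5 of 18 rose, 8 fell and 5 did not pass. The shares called were 27.8% and 44.4%, beside 34.0% and 32.2% of all genes. SSA2 and the ribosome-bound SSB1 fell by 4.58 and 4.04, and the stress-induced SSA3 and SSE2 rose by 6.77 and 4.16. Without either replicate's libraries 3 of these genes rose. Trehalose and glycogen genes rose in 14 of 17 (median 2.17), led by GAC1, a glycogen synthase phosphatase subunit, at 24.7 and 29.6 CPM in log phase and 2017 and 1971 CPM at day 1 (log2 fold change 6.20 ± 0.39 (SE), adjusted p = 8.8e-14), the branching enzyme GLC3 (4.94), the acid trehalase ATH1 (4.59) and the glycogenin GLG1 (4.01). TPS1, trehalose-6-phosphate synthase (log2 fold change 0.65, adjusted p = 0.16), its regulatory subunit TPS3 (log2 fold change 0.32, adjusted p = 0.24) and UGP1 (log2 fold change -0.30, adjusted p = 0.21) did not pass. In oxidative defence 10 of 19 rose, 5 fell and 4 did not pass (52.6% and 26.3% called, beside 34.0% and 32.2% of all genes). GPX1, the cytosolic catalase CTT1 and the mitochondrial peroxiredoxin PRX1 rose by 5.63, 4.46 and 4.29, and the thioredoxin reductase TRR1 and the peroxidase GPX2 fell by 2.07 and 2.53.

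Genes of degradation in the vacuole rose, beside the 34.0% of all genes that did. All 19 tested core autophagy genes were higher at day 1 (median 2.41). ATG1, the initiating kinase, read 22.6 and 23.9 CPM in log phase and 271 and 312 CPM at day 1 (log2 fold change 3.65 ± 0.44 (SE), adjusted p = 3.7e-08), ATG8, the ubiquitin-like protein of the autophagosome, read 6.83 and 10.2 CPM in log phase and 88.1 and 108 CPM at day 1 (log2 fold change 3.53 ± 0.48 (SE), adjusted p = 2.7e-07), and ATG9 and ATG3 rose by 3.39 and 2.95. Vacuolar proteases and their inhibitors rose in 9 of 10, with proteinase B (PRB1) at 249.5 and 232 CPM in log phase and 5172 and 5887 CPM at day 1 (log2 fold change 4.52 ± 0.41 (SE), adjusted p = 1.6e-10) and the inhibitor PAI3 at 6.28. APE3 did not pass (log2 fold change 0.20, adjusted p = 0.57). The proteasome list did not move in this way. Of 44 genes 4 rose, 5 fell and 35 did not pass (median -0.04), with 9.09% and 11.4% called beside 34.0% and 32.2% of all genes. The 5 falls became 11 with total counts and 2 without the replicate 1 libraries. The risers were not core subunits: NAS2 and RPN14, assembly chaperones, BLM10, an alternative activator, and RPN4, the transcription factor of proteasome genes, read 2.06, 0.51, 1.76 and 1.73.

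Ubiquitin and ribosome quality control (RQC), the pathway that frees stalled ribosomes and marks their nascent chains, were lists the study itself turned to, so they are no independent choice. UBI4, the stress-induced polyubiquitin gene, read 135 and 141 CPM in log phase and 1092 and 1153 CPM at day 1 (log2 fold change 3.02 ± 0.36 (SE), adjusted p = 2.9e-08). Its conjugating enzymes moved apart, UBC5 up by 3.00 and UBC4 down by 2.92. RFU1, an inhibitor of the deubiquitinase Doa4, fell by 2.47 and DOA4 rose by 1.74. HUL5, a proteasome-bound ligase, rose (log2 fold change 1.31, adjusted p = 2.1e-05) and so did UBP14, which disassembles free ubiquitin chains (log2 fold change 0.73, adjusted p = 0.0079). UBP14 lost its call under several alternatives, among them total counts (0.53). UBP6 (log2 fold change 0.42, adjusted p = 0.11) and CDC34, a conjugating enzyme of the G1/S transition (log2 fold change 0.67, adjusted p = 0.071), did not pass, and both were called higher with only the contrasted libraries (0.37 and 0.62). In the RQC list no gene rose, 8 of 20 fell and 12 did not pass (median -0.36). Of all genes 32.2% fell. Without the replicate 2 libraries 5 fell, and with only the contrasted libraries 13. HEL2, the ligase that senses collided ribosomes, read 87.4 and 81.1 CPM in log phase and 38.6 and 36.1 CPM at day 1 (log2 fold change -1.17 ± 0.24 (SE), adjusted p = 9.8e-05). RQC1 read 64.9 and 67.4 CPM in log phase and 42.3 and 42.5 CPM at day 1 (log2 fold change -0.64 ± 0.19 (SE), adjusted p = 0.0050), a call that was lost when either replicate's libraries were left out. RQC2 (log2 fold change -0.37, adjusted p = 0.15) and the ligase LTN1 (log2 fold change -0.35, adjusted p = 0.27) did not pass, though RQC2 was called lower with DESeq2, with its size factors and with only the contrasted libraries (-0.53, -0.53 and -0.43) and LTN1 with the last of these (-0.40). RLI1, the ribosome recycling ATPase, fell by 1.998. SKI8, GCN1 and VMS1 fell by 1.76, 1.40 and 1.33.

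Cell cycle genes fell in 10 of 20 (50%, beside 32.2% of all genes) and rose in none (median -0.53). The 10 include FAR1, whose log-phase level stood above all 8 libraries of the other strains. CLB6, an S-phase cyclin, read 19.2 and 21.5 CPM in log phase and 1.99 and 2.02 CPM at day 1 (log2 fold change -3.31 ± 0.43 (SE), adjusted p = 1.2e-07), and CLB2, the main mitotic cyclin, 116 and 95.3 CPM in log phase and 13.7 and 7.42 CPM at day 1 (log2 fold change -3.29 ± 0.30 (SE), adjusted p = 2.2e-10). CLB1 and PCL2 fell by 2.11 and 2.11. The G1 cyclins did not pass: CLN2 read 145 and 156 CPM in log phase and 154 and 121 CPM at day 1 (log2 fold change -0.13 ± 0.24 (SE), adjusted p = 0.64), and CLN1 (log2 fold change 0.40, adjusted p = 0.14) and CLN3 (log2 fold change 0.51, adjusted p = 0.095) had no call either. With only the contrasted libraries CLN3 was called higher (0.46), and 2 genes of the list rose. Neither WHI5, the inhibitor of the G1/S transition (log2 fold change 0.44, adjusted p = 0.16), nor SGT1, a kinetochore and ubiquitin ligase assembly factor (log2 fold change 0.32, adjusted p = 0.075), passed, and POG1, linked to recovery from pheromone arrest, rose (log2 fold change 1.499, adjusted p = 5.0e-06). UBS1, a suppressor of cdc34 mutants, passed narrowly (log2 fold change 0.62, adjusted p = 0.049) and lost its call in 10 of the alternatives. Of 20 replication genes 4 rose and 6 fell (beside 34.0% and 32.2% of all genes). The risers were POL2 (0.78) and the ribonucleotide reductase subunits RNR2, RNR3 and RNR4, with RNR3 at 6.33 and 7.60 CPM in log phase and 1118 and 763 CPM at day 1 (log2 fold change 7.08 ± 0.38 (SE), adjusted p = 3.8e-15), while RNR1 fell (log2 fold change -1.11, adjusted p = 5.6e-04). The 6 falls became 2 without the replicate 1 libraries and 1 without those of replicate 2. Histone genes fell in 5 of 10 (50%, beside 32.2% of all genes), with HTB2, HTA2 and HHF2 at -3.02, -2.82 and -1.999. HTA1, HTB1 and HHT2 did not pass (0.15, -0.09 and -0.16), though reads of these gene pairs may be shared.

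The phosphate regulon rose in all 12 of its genes (median 2.97), beside 34.0% of all genes. SPL2, which holds back low-affinity phosphate uptake, read 0.745 and 0.760 CPM in log phase and 213 and 245 CPM at day 1 (log2 fold change 8.18 ± 0.54 (SE), adjusted p = 2.4e-13), PHO84, the high-affinity transporter, 246 and 238 CPM in log phase and 3300 and 4479 CPM at day 1 (log2 fold change 4.01 ± 0.39 (SE), adjusted p = 6.9e-10), and PHO5, a secreted acid phosphatase, rose by 4.87, although it may share reads with PHO11 and PHO12. Of 19 amino acid permeases 8 rose and 8 fell (42.1% and 42.1%, beside 34.0% and 32.2% of all genes). GAP1 and PUT4, permeases of nitrogen limitation, rose by 4.50 and 4.40, and GNP1 and the peptide transporter PTR2 fell by 4.62 and 2.85. In iron uptake 7 of 19 rose, 9 fell and 3 did not pass (36.8% and 47.4% called, beside 34.0% and 32.2% of all genes). FET3 and FTR1, the high-affinity uptake complex, fell by 3.17 and 1.70, and the cell wall mannoprotein FIT3 and the mRNA-binding TIS11 rose by 3.47 and 2.89. Without the replicate 1 libraries there were 5 falls, and without those of replicate 2 4 rises. Purine genes fell in 5 of 15 (33.3%, near the 32.2% of all genes), among them IMD4, IMD3 and GUA1 of GTP synthesis at -6.59, -2.64 and -3.86, and ADE17, ADE1 and ADE16 rose (1.497, 1.14 and 0.54). Ergosterol genes fell in 10 and rose in 4 of 24 (41.7% and 16.7%, beside 32.2% and 34.0% of all genes), with ERG4 at -3.68 and ERG25 at 1.23. Without the replicate 1 libraries 5 fell and 1 rose. The fatty acid elongases ELO1, ELO2 and ELO3 fell by 2.34, 3.02 and 3.98, and the desaturase OLE1 rose (log2 fold change 2.88, adjusted p = 4.3e-06). In cell wall proteins 7 of 18 rose, 7 fell and 4 did not pass (38.9% and 38.9% called, beside 34.0% and 32.2% of all genes). PIR3 read 20.6 and 32.1 CPM in log phase and 2195 and 2757 CPM at day 1 (log2 fold change 6.56 ± 0.59 (SE), adjusted p = 1.1e-10), and CIS3 and SRL1 fell by 3.40 and 3.11. Regulators of carbon source and quiescence rose in 14 of 21 (66.7%, beside 34.0% of all genes). SIP4, CAT8 and ADR1, activators of gluconeogenic and ethanol genes, rose by 7.97, 5.45 and 3.12, and the repressor XBP1 by 5.36. MIG1, the glucose repressor, fell (log2 fold change -2.27, adjusted p = 2.8e-04).

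Among genes known for the pheromone response, FIG1, PRM6, FIG2, PRM1, FUS1, AGA1 and FAR1 fell from log phase to day 1 in AGY1839. They formed no fixed list, and apart from FIG1, PRM6 and PRM2 they were chosen after their values were seen, so they are described without a count of calls. PRM4, also named for regulation by pheromone, was higher at day 1 in both replicates, from 46.7 and 79.9 raw CPM in log phase to 146 and 111 at day 1. FIG1 (YBR040W), a membrane protein of calcium entry during mating, read 88.0 and 135 CPM in log phase and 3.23 and 1.01 CPM at day 1 (log2 fold change -5.59 ± 0.42 (SE), adjusted p = 5.8e-12). PRM6 (YML047C), a pheromone-regulated membrane protein, read 24.8 and 37.0 CPM in log phase and 1.49 and 0 CPM at day 1 (log2 fold change -5.11 ± 0.54 (SE), adjusted p = 7.6e-08). In the euploid each of these genes was below 1 CPM in all 4 libraries. FIG2 read 976 and 1498 CPM in log phase and 64.7 and 35.4 CPM at day 1 (log2 fold change -4.62 ± 0.26 (SE), adjusted p = 7.5e-15), and PRM1, which acts in membrane fusion, 266 and 371 CPM in log phase and 26.1 and 13.2 CPM at day 1 (log2 fold change -3.99 ± 0.38 (SE), adjusted p = 4.0e-10). FUS1, needed for cell fusion, read 118 and 156 CPM in log phase and 29.6 and 3.04 CPM at day 1 (log2 fold change -2.99 ± 0.42 (SE), adjusted p = 4.2e-07). Both log-phase cultures were high, the alpha-type replicate 1 as well as the a-type replicate 2, and at day 1 FUS1 stayed higher in replicate 1 than in replicate 2. AGA1, the anchor subunit of a-agglutinin, read 765 and 929.7 CPM in log phase and 124 and 13.2 CPM at day 1 (log2 fold change -3.61 ± 0.49 (SE), adjusted p = 2.4e-07), and FAR1, which arrests the cycle in response to pheromone, 499.6 and 483 CPM in log phase and 144 and 88.4 CPM at day 1 (log2 fold change -2.08 ± 0.29 (SE), adjusted p = 3.4e-07). In the 8 log-phase libraries of the other strains FIG1 reached at most 0.536, FUS1 16.1 and AGA1 54.0 raw CPM, against at least 105, 141 and 914 in AGY1839. Of the G protein subunits, STE4 lies on chromosome XV and read 277 and 288.3 raw CPM against 134 to 173 in the other strains, and GPA1, on chromosome VIII, 199.7 and 185 raw CPM against 96.6 to 129. From log phase to day 1 STE4 did not pass (log2 fold change -0.25, adjusted p = 0.42) and GPA1 fell (log2 fold change -0.68, adjusted p = 0.016). The part of either in the response was not tested. TGAAACA was present upstream of 7 of the 9 genes FIG1, FIG2, PRM1, PRM2, PRM6, FUS1, FUS2, AGA1 and KAR4, and absent for FIG1 and FIG2. This set was picked by hand after values were seen and leaves out others known for this response, such as FAR1. Its share is therefore no measure of enrichment.

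Calls were about as frequent on the duplicated chromosome as over all genes. Of 532 tested genes on chromosome XV 188 (35.3%) rose and 180 (33.8%) fell, beside 34.0% and 32.2% of all genes, and the median was -0.02. The largest rise on it was CRC1 (YOR100C), at 1.61 and 1.90 CPM in log phase and 1170 and 1041 CPM at day 1 (log2 fold change 9.28 ± 0.52 (SE), adjusted p = 1.9e-14), where the euploid read 0.346 and 0.728 CPM in log phase and 407 and 352 CPM at day 1. FDH1 (YOR388C), a formate dehydrogenase, read 2.98 and 1.71 CPM in log phase and 331 and 163 CPM at day 1 (log2 fold change 6.64 ± 0.46 (SE), adjusted p = 7.6e-13), and DDR2 (YOL052C-A), a multistress response protein, 25.2 and 22.6 CPM in log phase and 1786 and 1920 CPM at day 1 (log2 fold change 6.27 ± 0.48 (SE), adjusted p = 6.0e-12). At day 1 the AGY1839 cultures lay above both euploid cultures for all of them, whereas in log phase the counts of CRC1 and FDH1 were low in both strains. The largest falls were PFK27 (YOL136C), which makes the glycolytic activator fructose-2,6-bisphosphate, at 186 and 169 CPM in log phase and 6.47 and 9.78 CPM at day 1 (log2 fold change -4.47 ± 0.59 (SE), adjusted p = 1.5e-07), the snoRNA particle protein NOP58 (YOR310C; log2 fold change -4.08 ± 0.56 (SE), adjusted p = 3.6e-07) and LEU9 (YOR108W), an alpha-isopropylmalate synthase of leucine synthesis (log2 fold change -3.94 ± 0.36 (SE), adjusted p = 2.1e-10).

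The change from log phase to day 1 was then compared with that of the euploid AGY731, as a difference of changes within one fit. It was higher in AGY1839 for 74 genes (1.26%) and lower for 149 (2.54%), so 3.80% of tested genes passed, and 726 did at an unadjusted p under 0.05. The counts were 41 higher and 329 lower with total counts, and 286 and 453 with only the contrasted libraries. Without the replicate 1 libraries 20 and 68 genes passed, and without the replicate 2 libraries 46 and 77. Among the genes with the lowest differences, the log-phase cultures of AGY1839 were the ones that stood apart. HXK1 (YFR053C) read 356 and 276 CPM in log phase against 2.60 and 4.61 in the euploid, and 413 and 491 CPM against 440.1 and 599 at day 1 (difference -6.68 ± 0.45 (SE), adjusted p = 2.2e-11). HSP12 (YFL014W) read 59.5 and 50.9 CPM against 3.11 and 1.94 in log phase and 1613 and 1684 against 2732 and 2208 at day 1 (difference -4.98 ± 0.68 (SE), adjusted p = 1.2e-05). In both genes the strains lay much closer at day 1 than in log phase. DDR2 (YOL052C-A) read 25.2 and 22.6 CPM against 0.519 and 0.485 in log phase (difference -4.76 ± 0.79 (SE), adjusted p = 1.4e-04) and TMA10 (YLR327C), a ribosome-associated protein, 10.9 and 11.8 against 0.519 and 0 (difference -4.92 ± 0.72 (SE), adjusted p = 2.2e-05). PRM2 (YIL037C), a pheromone-regulated membrane protein, read 53.5 and 87.2 against 4.15 and 4.13 in log phase and 4.23 and 4.72 against 10.2 and 6.17 at day 1 (difference -4.91 ± 0.49 (SE), adjusted p = 6.5e-08). SIP18 had 0 counts in both euploid log-phase libraries, so its fitted difference of -5.08 (adjusted p = 0.033) depends on the prior count and is no bound. It became -1.69 with a prior count of 2.

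By list, 10 of 17 trehalose and glycogen genes and 7 of 17 hydrophilin and stationary-phase genes had a lower change in AGY1839, beside 2.54% of all genes, and none a higher one. Without the replicate 1 libraries these counts were 6 and 4, and without the replicate 2 libraries 8 and 5. The median change of the trehalose and glycogen list was 2.17 in AGY1839 and 4.58 in AGY731. TSL1, a trehalose synthase subunit, read 308 and 267 CPM in log phase against 10.2 and 12.1 in the euploid and 927 and 951 against 824 and 791 CPM at day 1 (difference -4.47 ± 0.48 (SE), adjusted p = 2.5e-07). GPH1, glycogen phosphorylase, and GSY1, a glycogen synthase, differed by -4.47 and -4.19, and their log-phase levels in AGY1839, like that of TSL1, lay above all 8 log-phase libraries of the other strains. MSN4, a stress regulator, read 109 and 96.8 CPM in log phase and 114 and 135 at day 1 in AGY1839, against 11.4 and 11.2 in log phase and 114 and 153 at day 1 in AGY731 (difference -3.29 ± 0.44 (SE), adjusted p = 1.2e-05).

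The 6 named genes with the highest differences were all lower in both log-phase cultures of AGY1839 than in both euploid ones. BSC1 (YDL037C) read 22.6 and 14.4 CPM in log phase against 389 and 392 in the euploid, and 2.99 and 4.05 against 0.730 and 3.93 at day 1 (difference 4.85 ± 0.92 (SE), adjusted p = 0.0011). FRE4 (YNR060W), a ferric reductase, read 22.6 and 18.0 against 336 and 332 in log phase (difference 4.38 ± 0.42 (SE), adjusted p = 3.4e-08), INA1 (YLR413W) 228 and 214 against 860.2 and 896 (difference 3.43 ± 0.67 (SE), adjusted p = 0.0013), and PRM7 (YDL039C) 1.61 and 1.90 against 34.1 and 44.2 (difference 4.30 ± 1.11 (SE), adjusted p = 0.021). Here too the log-phase levels of AGY1839 were the outlying ones, below all 8 log-phase libraries of the other strains. FLO11 (YIR019C), the flocculin of adhesion and filaments, read 14.7 and 10.2 CPM in log phase and 272 and 119 at day 1 in AGY1839, against 136 and 188 in log phase and 159 and 106 at day 1 in AGY731 (difference 4.25 ± 0.46 (SE), adjusted p = 2.7e-07). Its log-phase levels in AGY1839 lay within the range of 7.14 to 462 raw CPM of the other strains in log phase. CHA1 (YCL064C), a serine and threonine deaminase, rose in AGY1839 from 131 and 105 to 470.4 and 268 CPM and fell in AGY731 from 170.4 and 134 to 38.3 and 17.9 (difference 4.10 ± 0.60 (SE), adjusted p = 3.5e-05). Of 20 cell cycle genes, CLN1, CLN2 and CLB2 were those with a higher change in AGY1839, beside 1.26% of all genes. CLN2, a G1 cyclin, read 137 and 135 CPM in log phase and 40.5 and 45.2 at day 1 in the euploid, against 145 and 156 in log phase and 154 and 121 at day 1 in AGY1839 (difference 1.54 ± 0.35 (SE), adjusted p = 0.0066). At day 1 both AGY1839 cultures lay above both euploid cultures. Of 10 histone genes, HTB2, HTA2, HHF2 and HHT2 also had higher changes, with a median difference of 1.04 over the list. RNR1, the large subunit of ribonucleotide reductase, had a higher change too (difference 1.57 ± 0.37 (SE), adjusted p = 0.010). The 3 cell cycle and 4 histone calls became 0 and 0 without day 1 replicate 1 of AGY1839, 0 and 0 without both replicate 1 libraries, and 3 and 2 without both replicate 2 libraries. The differences kept their direction: without that day 1 library the difference was 1.36 for CLN2, 1.64 for CLB2 and 1.47 for HTB2, beside 1.54, 2.18 and 1.72 with it. The histone calls numbered 1 with total counts, 8 with DESeq2 and 10 with only the contrasted libraries. In the study's ubiquitin list UBI4 had a lower change (-1.68 ± 0.48 (SE), adjusted p = 0.043), from 135 and 141 CPM in log phase against 34.4 and 36.9. No gene of the RQC list passed this test, and for HEL2 the difference was 0.12 ± 0.33 (SE), adjusted p = 0.95.

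**Figure D5:**
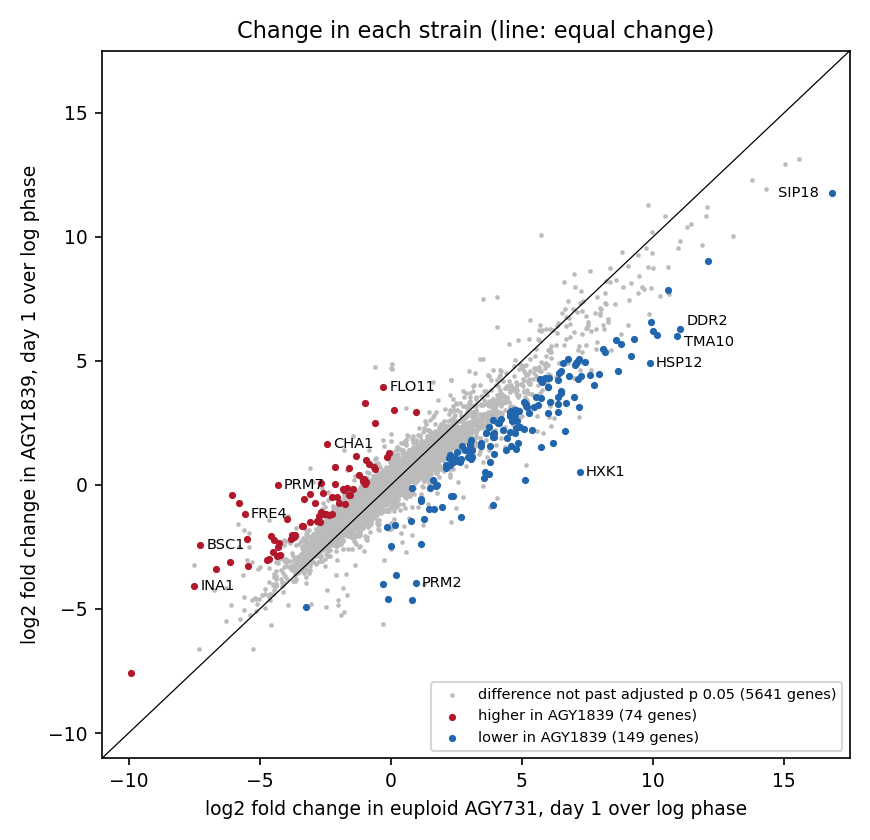
Log2 fold change from log phase to day 1 in AGY1839 (vertical) against that in the euploid AGY731 (horizontal) for the 5864 genes tested, with the line of equal change. Most genes lie near the line, 74 genes (red) had a higher and 149 (blue) a lower change in AGY1839, and HXK1 lies farthest below it among named genes, at a difference of -6.68.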

How the data were processed

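The 4 libraries of AGY1839 in log phase and at day 1 were measured by strand-specific sequencing of rRNA-depleted total RNA. The deposited values are raw read counts per gene, made by the authors by mapping to the S288C genome carrying YPS1009 variants (bwa-meme in the methods, BWA 0.7.12-r1039 in the submitters' processing notes, with Trimmomatic 0.39) and counting with HTSeq 0.7.2. The reference release, the strand setting and the handling of reads with several matches are not given in the sources used here, so paralogs with near-identical sequence are uncertain. Schizosaccharomyces pombe cells were added before extraction for scaling per cell, and the table used here holds budding yeast genes, so all levels are relative.

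Counts were fitted with edgeR 4.0.16 (R 4.3.3) by its quasi-likelihood test over all 40 libraries, with 1 coefficient for each of 20 strain and time groups, TMM scaling, genes that reached 10 counts in 2 or more libraries, a prior count of 0.125 and Benjamini-Hochberg adjustment over 5864 genes. Tests were two-sided and calls had an adjusted p under 0.05. The difference from AGY731 was a contrast of both changes in that fit. CPM values are scaled by TMM. SE is the unshrunk log2 fold change divided by the root of its F statistic. Library totals ran from 725316 to 7036849 over the series, and the common coefficient of variation between cultures was 0.19. Intervals and floors cover counting error only. The fit was also run on simulated counts with the same spread for every gene and far fewer changed genes. That run therefore does not speak for the scaling or the error rates in these data.

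The gene lists, and the members, were chosen with earlier results of these data known. Named genes are the 10 largest rises and falls with at least 100 counts in both cultures of the higher group and no overlap, up to 4 called members of each list plus members that did not pass or went against it, the 6 largest differences between strains each way, the 3 largest changes each way on chromosome XV, genes the study perturbed, and the mating-type markers. Alternatives were DESeq2 1.42.0, its size factors in edgeR, total counts, other count filters, only the contrasted libraries, a prior count of 2, a replicate block and leaving out libraries. The result for 1 list member is not reported here.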

Additional observations from a re-analysis of the deposited data

Results flagged for a closer look

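The change from log phase to day 1 differed between AGY1839 and the euploid AGY731, by a test of the difference itself, for 74 genes in which it was higher and 149 in which it was lower in AGY1839 (edgeR quasi-likelihood test, adjusted p under 0.05). Among genes named by rule, the log2 difference of the changes was -6.68 for HXK1, -5.08 for SIP18, -4.98 for HSP12, -4.92 for TMA10, -4.91 for PRM2 and -4.76 for DDR2. On the other side it was 4.85 for BSC1, 4.38 for FRE4, 4.30 for PRM7, 4.25 for FLO11, 4.10 for CHA1 and 3.43 for INA1. Of these genes, HXK1, HSP12, TMA10, PRM2 and DDR2 were above and BSC1, FRE4, PRM7 and INA1 below all 8 log-phase libraries of the other strains in both log-phase cultures of AGY1839. SIP18 was above them too, but only at 1.78 and 0.693 raw CPM against up to 0.564, close to the limit of counting. Its fitted difference depends on the prior count.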

How the results depend on the processing

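The counts of genes that changed from log phase to day 1 in AGY1839 stayed within 1.5 times of 1993 higher and 1887 lower under every alternative run, with 1694 to 1776 higher and 1607 to 1700 lower when single libraries were left out. Of the calls, 75.1% were shared without both replicate 1 libraries and 75.9% without both replicate 2 libraries. The counts of genes whose change differed from the euploid were less stable. They became 178 higher and 229 lower with DESeq2, 286 higher and 453 lower with only the contrasted libraries and 41 higher and 329 lower with total counts, which moves the share of higher calls from 33.2% to 11.1%. They were 20 higher and 68 lower without both replicate 1 libraries and 46 higher and 77 lower without both replicate 2 libraries, and 30 to 68 higher and 82 to 130 lower when single libraries were left out. Where only 1 culture of a group is left, it is assumed to vary like the other groups, and the cause of the other shifts was not tested.

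The mating-type markers reversed with the libraries kept. The log2 fold change was 1.89 for ASG7, 0.93 for BAR1 and 1.89 for MFA1 without both replicate 2 libraries, and MF(ALPHA)2 had 0.82 without both replicate 1 libraries. With single libraries left out it ran from -5.25 to 3.17 for ASG7, -5.72 to 2.69 for BAR1, -6.30 to 5.16 for MFA1, -7.16 to 1.51 for STE2 and -5.62 to 0.90 for MF(ALPHA)2. Over the other named genes and alternatives, 2534 values of the change kept their direction and call, 21 lost and 8 gained a call, the mating-type markers lost a call in 6 more, and INA1, PRM7 and SIP18 lost the call of their difference in 14 fits together.

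With only 2 pairs, replicate numbers do not pair the cultures by the labels. With a replicate block 2002 higher and 1901 lower genes changed and 76 higher and 150 lower differed from the euploid. That block was shared by all strains, so it cannot take up a split of the replicates within AGY1839 alone. These counts therefore do not show whether the AGY1839 cultures are paired, and a pairing within AGY1839 alone was not modelled. Replicate differences in log phase and at day 1 correlated at 0.17 over 3966 genes, where same-numbered libraries share the mating-type profile. The 2 cultures per group, and log-phase counts near 0 for the strongest rises, limit the precision of their fold changes.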
